A study of Mus musculus with 6 samples.

Results

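Frizzled proteins are the membrane receptors that bind Wnt ligands through a cysteine-rich domain outside the cell. The mouse has 10 of them, and each had 1 or 2 probes in the authors' deposited table, which holds 27269 of the probes on the array. The members were the probes whose gene symbol in the authors' deposited table is Fzd1 to Fzd10, in either of its symbol columns. This gave 13 probes of 10 genes, 7 genes with 1 probe and 3 genes (Fzd2, Fzd5 and Fzd7) with 2 probes, among 39429 probes on the array. Of the 13, 3 probes (those of Fzd3 and Fzd8 and 1 of Fzd5) carry the symbol in the array maker's column only.

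RNA came from the dorsal forebrain, described in the design as dorso-medial pallium, of 3 mutant and 3 control mouse embryos at E11.5, a midgestation stage given as days of embryonic development. Each array holds 1 embryo, and mutant 1 and control 1, mutant 2 and control 2, and mutant 3 and control 3 are littermates. The labels call the groups mutant and control, and the mutated gene, its allele and any Cre driver are not given in the sources used here. The series title sets the comparison within Wnt/beta-catenin signalling in cortical precursors.

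A Wnt bound to a Frizzled and to the co-receptor Lrp5 or Lrp6 recruits Dishevelled, which stabilises beta-catenin, while other Frizzled complexes act on cell polarity without beta-catenin. In the embryonic forebrain Wnts leave the cortical hem, the medial margin of the pallium, and precursors of the hippocampus and neocortex receive them. By sequence, the receptors form the subfamilies Fzd1, Fzd2 and Fzd7, then Fzd5 and Fzd8, then Fzd4, Fzd9 and Fzd10, and Fzd3 and Fzd6.

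Levels are log2 of the background-subtracted signal over the 75th percentile of its array, so that 0 is the level of that percentile. Differences are mutant minus control on this log2 scale with their standard error (SE). A probe's level depends on its own sequence, so levels were compared between embryos and not between probes, and cross-hybridisation between the related receptors was not tested. All 13 probes were well above background on all 6 arrays, and none was saturated. Of the spots on an array, 65.75% to 67.90% were well above background in mutants and 68.68% to 70.10% in controls.

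Some embryos stood apart in genes of neighbouring tissue, which were set beside the Frizzled genes. The summed signal of 10 measured cortical hem genes, in multiples of the array's 75th percentile, was 14.8, 10.4 and 1.23 across mutants 1 to 3, and 5.90, 7.45 and 8.63 across controls 1 to 3. Mutant 3 was thus the lowest of the 6 in hem genes. The sum of 8 genes of the meninges and head mesenchyme was 33.4, 14.3 and 10.5 across mutants 1 to 3, and 22.8, 16.1 and 13.9 across controls 1 to 3. The sum of 5 subpallial genes was 8.44, 5.84 and 11.4 across mutants 1 to 3, and 6.86, 5.77 and 1.17 across controls 1 to 3, so that control 3 was the lowest. Emx2, Lhx2 and Pax6, which mark precursors of the pallium, were well above background in all 6 embryos.

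Fzd1 and Fzd9 had the largest differences among the Frizzled genes, and both were lower in every mutant than in any control. The downstream probe of Fzd7 was also lower, while Fzd8 and the upstream probe of Fzd5 were higher in all mutants. None of these passed the test over all probes: 0 of the 13 had an adjusted p under 0.05 (limma with Benjamini-Hochberg adjustment over 26846 probes), as had 0.0261% of all probes. At an unadjusted p under 0.05 there were 5 of the 13, 3 lower and 2 higher, against 16.4% of all probes (7.43% lower and 9.01% higher). Groups did not overlap for 6 of the 13, 3 lower and 3 higher in mutants, against 24.3% of all probes (12% lower and 12.3% higher). The median difference was -0.02 over the 13 probes and 0.02 over all probes. Litter 1 was hybridised on a slide of its own, and within the other slide, which held litters 2 and 3, the differences were -0.81 for Fzd1, -1.04 for Fzd9, -0.41 for the downstream Fzd7 probe, 0.69 for Fzd8 and 0.73 for the upstream Fzd5 probe.

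**Figure D1:**
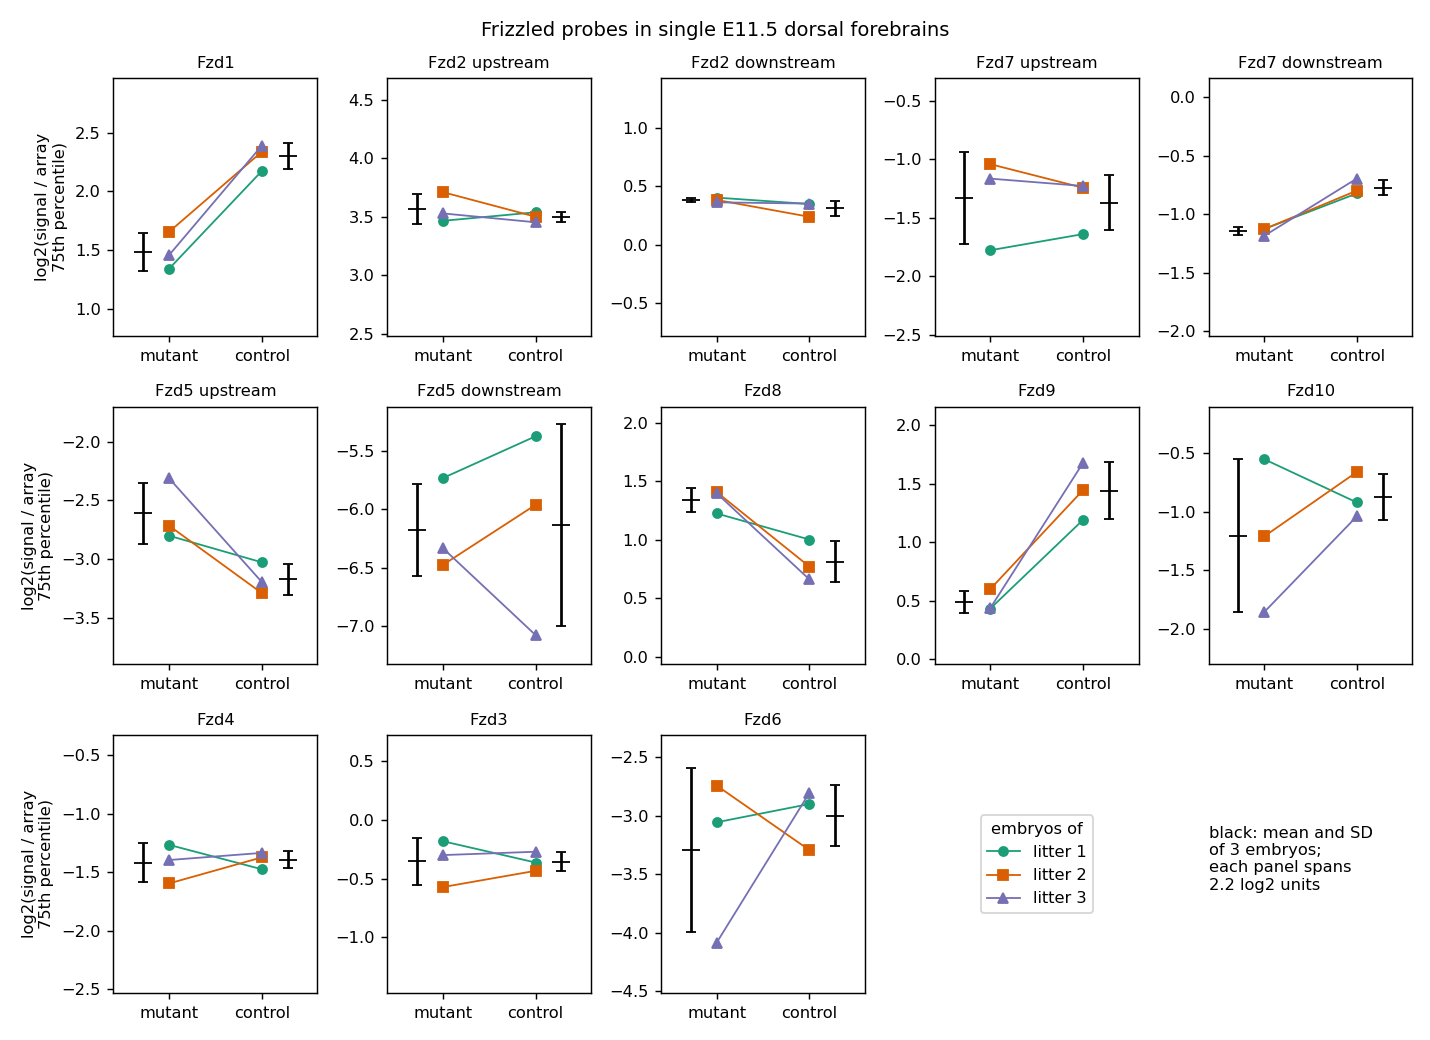
Level of each Frizzled probe in each embryo, as log2 of the signal over the 75th percentile of the array, with mutants on the left and controls on the right of each panel, lines joining littermates, and black marks giving mean and SD of 3 embryos. The 3 mutants lie below the 3 controls for Fzd1, Fzd9 and the downstream probe of Fzd7, and above them for Fzd8, the upstream probe of Fzd5 and, by 0.01, the downstream probe of Fzd2.

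The RefSeq promoter table (GRCm38.p6) held windows of 300 bases, from 250 before to 50 after the start, for 6 of the 10 genes. Those of Fzd1 and Fzd9, which were lower in all mutants, of Fzd7, which was lower at 1 of its 2 probes, and of Fzd5, which was higher at 1 of its 2 probes, are shown. Capitals mark the 2 hexamers searched on both strands, CTTTGA and CTTTGT, which are forms of the core sequence bound by the Tcf/Lef partners of beta-catenin and do not overlap each other here. The second was added after the windows had been read. Fzd1 lies on the minus strand of chromosome 5 (chr5:4758167-4758466), Fzd9 on the minus strand of chromosome 5 (chr5:135250998-135251297), Fzd7 on the plus strand of chromosome 1 (chr1:59481897-59482196) and Fzd5 on the minus strand of chromosome 1 (chr1:64737701-64738000).
Fzd1: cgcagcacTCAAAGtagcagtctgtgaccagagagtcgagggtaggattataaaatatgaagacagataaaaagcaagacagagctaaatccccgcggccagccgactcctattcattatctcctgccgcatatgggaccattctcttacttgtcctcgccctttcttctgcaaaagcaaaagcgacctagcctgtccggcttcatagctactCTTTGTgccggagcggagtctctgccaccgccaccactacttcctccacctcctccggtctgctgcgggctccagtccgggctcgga
Fzd9: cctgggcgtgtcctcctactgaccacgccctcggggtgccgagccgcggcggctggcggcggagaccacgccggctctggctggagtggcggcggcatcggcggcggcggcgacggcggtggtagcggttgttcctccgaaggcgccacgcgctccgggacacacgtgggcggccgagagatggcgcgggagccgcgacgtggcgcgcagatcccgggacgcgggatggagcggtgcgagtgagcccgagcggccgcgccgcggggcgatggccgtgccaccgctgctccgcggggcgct
Fzd7: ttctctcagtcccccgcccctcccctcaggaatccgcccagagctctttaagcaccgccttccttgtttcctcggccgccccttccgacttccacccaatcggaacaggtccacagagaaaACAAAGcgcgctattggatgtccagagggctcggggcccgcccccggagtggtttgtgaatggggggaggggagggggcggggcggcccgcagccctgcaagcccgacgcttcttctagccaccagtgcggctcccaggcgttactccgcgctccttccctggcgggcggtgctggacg
Fzd5: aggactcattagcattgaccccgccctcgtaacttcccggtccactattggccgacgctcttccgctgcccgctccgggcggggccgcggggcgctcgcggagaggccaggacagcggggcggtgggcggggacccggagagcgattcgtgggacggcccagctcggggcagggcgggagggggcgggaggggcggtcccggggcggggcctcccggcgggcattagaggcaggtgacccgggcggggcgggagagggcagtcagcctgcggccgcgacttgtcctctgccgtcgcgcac

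CTTTGA or its complement was in 1 of the 6 windows, that of Fzd1, with its leftmost base at -242 from the start, and in 16.0% of all 32851 windows in the table. CTTTGT or its complement was in 2 of the 6, those of Fzd1 (-37) and Fzd7 (-129), and in 18.7% of all windows. The windows of Fzd9, Fzd5, Fzd4 and Fzd10 held neither. The 6 windows were rich in CG dinucleotides, with 16 in Fzd1, 24 in Fzd7, 32 in Fzd4, 38 in Fzd5, 45 in Fzd10 and 53 in Fzd9, against a median of 7 over all windows. Their GC content was 54.0% in Fzd1 and between 66.7% and 78.0% in the other windows. A hexamer in such a window is a match of letters and not a binding site.

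The first subfamily holds Fzd1, Fzd2 and Fzd7, receptors that signal through beta-catenin in many cell types. Fzd1, which acts with Fzd2 in closure of the palate and heart septa in mice, read 1.34, 1.65 and 1.46 across mutants 1 to 3, and 2.17, 2.34 and 2.39 across controls 1 to 3. The highest mutant lay 0.52 below the lowest control. The mean was 1.48 ± 0.16 in mutants and 2.30 ± 0.11 in controls (SD, n = 3 each), which is 1.76-fold lower in mutants (95% interval 1.46 to 2.13). The log2 difference of -0.82 (SE 0.11) had an adjusted p of 0.102 in limma and ranked 94th by p among all probes. It was -0.83, -0.68 and -0.93 within litters 1, 2 and 3. Without mutant 3, which stood apart in hem genes, it was -0.80, and without control 3, which stood apart in subpallial genes, -0.77. The Fzd1 probe lies on the minus strand of chromosome 5 from 4754003 to 4754062 (mm9, as the authors' deposited table annotates the array).

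Fzd2 was measured with 2 probes on chromosome 11, the upstream one from 102467613 to 102467672 and the downstream one from 102469045 to 102469104 (mm9, plus strand). At the upstream probe the levels were 3.46, 3.71 and 3.53 across mutants 1 to 3, and 3.54, 3.50 and 3.45 across controls 1 to 3. The groups overlapped. At the downstream probe they were 0.40, 0.38 and 0.36 across mutants 1 to 3, and 0.35, 0.24 and 0.35 across controls 1 to 3. These groups did not overlap, but the gap between them was 0.01. Both probes gave a difference of 0.07, with 95% intervals from -0.15 to 0.29 upstream and from -0.10 to 0.24 downstream. A change of Fzd2 as large as that measured for Fzd1 lies outside both intervals.

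Fzd7, a receptor of stem and progenitor cells in several tissues, was read by 2 probes on chromosome 1 (mm9, plus strand). The downstream probe, from 59543192 to 59543251, read -1.13, -1.13 and -1.19 across mutants 1 to 3, and -0.82, -0.80 and -0.70 across controls 1 to 3. All mutants were lower there, with a log2 difference of -0.37 (SE 0.07, limma, adjusted p = 0.138), 1.30-fold lower (95% interval 1.15 to 1.46). The upstream probe, from 59541367 to 59541426, read -1.78, -1.04 and -1.16 across mutants 1 to 3, and -1.64, -1.24 and -1.23 across controls 1 to 3. There the groups overlapped, mutant 1 and control 1 were the lowest of their groups, and the difference was 0.04 (95% interval -0.51 to 0.60).

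The probes of Fzd7 start 1825 bases apart in mm9. The downstream level minus the upstream level was 0.65, -0.09 and -0.02 across mutants 1 to 3, and 0.81, 0.44 and 0.53 across controls 1 to 3. The groups differed by -0.42 in this value (exact permutation test, two-sided, p = 0.3, smallest possible 0.1 with 3 against 3). Within litters it was -0.17, -0.53 and -0.55, negative in each of the 3 (exact paired permutation test, two-sided, p = 0.25, the smallest that 3 pairs allow). Neither test could pass 0.05 at this number of embryos. Whether both probes read the same Fzd7 transcripts was not tested.

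Fzd5 and Fzd8 are close relatives known for roles in the eye, where they act together in retinal progenitors of the mouse, and Fzd8 is a receptor of forebrain precursors. Fzd8 read 1.22, 1.41 and 1.40 across mutants 1 to 3, and 1.001, 0.77 and 0.66 across controls 1 to 3. Every mutant was above every control, by at least 0.22. The mean was 1.34 ± 0.10 in mutants and 0.81 ± 0.17 in controls (SD, n = 3 each), 1.45-fold higher in mutants (95% interval 1.19 to 1.75). The log2 difference of 0.53 (SE 0.11) had an adjusted p of 0.157 in limma. Within litters 1, 2 and 3 it was 0.22, 0.64 and 0.74, so that litter 1 showed the least.

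Fzd5 was read by an upstream probe, from 64781972 to 64782030, and a downstream probe, from 64779479 to 64779538, on the minus strand of chromosome 1 (mm9). The upstream probe read -2.80, -2.72 and -2.31 across mutants 1 to 3, and -3.03, -3.29 and -3.20 across controls 1 to 3. The groups did not overlap, and the log2 difference was 0.56 (SE 0.15, limma, adjusted p = 0.2), 1.48-fold higher (95% interval 1.14 to 1.92). Litters 1, 2 and 3 gave 0.23, 0.58 and 0.89, in the same order as for Fzd8.

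The downstream Fzd5 probe was dim, at -5.73, -6.48 and -6.33 across mutants 1 to 3, and -5.38, -5.96 and -7.08 across controls 1 to 3. The groups overlapped, the controls spanned 1.70 log2 units, and the interval of the difference (-0.04) ran from -1.16 to 1.08. This interval holds both no difference and the value of the upstream probe. The lowest signal that was well above background on an array lay between -7.09 and -6.55 in mutants and between -7.42 and -7.33 in controls, so that this probe was close to its limit. Downstream minus upstream was -2.93, -3.76 and -4.02 across mutants 1 to 3, and -2.35, -2.67 and -3.88 across controls 1 to 3 (exact permutation test, two-sided, p = 0.3, smallest possible 0.1). Within litters the groups differed in this value by -0.58, -1.09 and -0.14 (exact paired permutation test, two-sided, p = 0.25, the smallest that 3 pairs allow).

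Neuronal genes had differences of the same sign as Fzd8 and the upstream Fzd5 probe, and their summed signal, like them, differed least within litter 1. All 8 neuronal genes listed had positive differences (median 0.40, and 0.26 without mutant 3). Of them, 5 had an unadjusted limma p under 0.05, against 9.01% of all probes higher at that level, and 0 passed the adjusted threshold. The summed signal of the neuronal genes was 67.1, 85.4 and 95.7 across mutants 1 to 3, and 66.8, 63.6 and 60.3 across controls 1 to 3. The 5 measured eye field genes summed to 1.48, 0.94 and 1.87 across mutants 1 to 3, and 2.25, 1.48 and 1.41 across controls 1 to 3, which overlap. In tissue of mixed cells, a change in the number of cells of a type and a change in RNA per cell cannot be told apart. The part of either list in the Fzd8 and Fzd5 values was not tested.

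**Figure D2:**
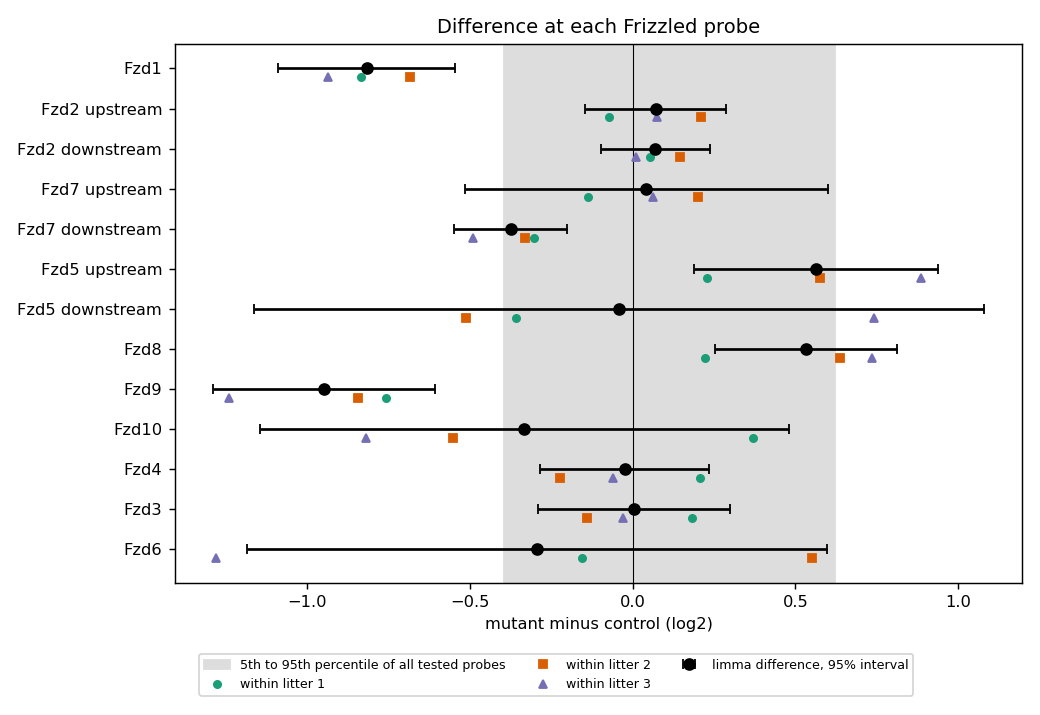
Mutant minus control difference (log2) at each Frizzled probe from limma, with its 95% interval in black, the differences within litters 1, 2 and 3 as coloured marks, and the 5th to 95th percentile of all tested probes (-0.40 to 0.62) as a grey band. Fzd1 and Fzd9 lie outside the band, and their marks for the 3 litters are -0.68 or lower.

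Fzd9 and Fzd10 share a subfamily with Fzd4. Fzd9, a receptor of the hippocampal primordium whose loss in mice affects the dentate gyrus, had the largest difference of the family. It read 0.43, 0.60 and 0.44 across mutants 1 to 3, and 1.19, 1.45 and 1.68 across controls 1 to 3. The lowest control lay 0.59 above the highest mutant, and the mutants spanned 0.17 log2 units against 0.49 in controls. The mean was 0.49 ± 0.10 in mutants and 1.44 ± 0.24 in controls (SD, n = 3 each), 1.93-fold lower in mutants (95% interval 1.52 to 2.44). The log2 difference of -0.95 (SE 0.14, limma, adjusted p = 0.108) lay at percentile 0.548 of the differences of all probes, and it was -0.76, -0.85 and -1.24 within litters 1, 2 and 3. Without mutant 3 it was -0.92 and without control 3 -0.83. The probe lies on the minus strand of chromosome 5 from 135724815 to 135724874 (mm9).

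In the authors' deposited table, made from the same 6 arrays and so no independent support, Fzd1 had a log2 ratio of -0.8326 and an fdr of 0.02504. In the authors' deposited table Fzd9 had -0.9848 and 0.02019. These are the 2 of the 13 probes with an fdr under 0.05 in the authors' deposited table, among 357 of the 11483 probes that have an fdr there. The authors' deposited table gives an fdr of 0.05076 for Fzd8, 0.05122 for the downstream Fzd7 probe and 0.1103 for the upstream Fzd5 probe. The fdr in the authors' deposited table is NA for 15786 of its 27269 probes and for 4 of the 13, both Fzd2 probes, Fzd3 and Fzd4.

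Fzd10, known in the mouse brain as a gene of the cortical hem, varied more among the mutants than between the groups. It read -0.55, -1.21 and -1.86 across mutants 1 to 3, and -0.92, -0.66 and -1.04 across controls 1 to 3. The mutants spanned 1.31 log2 units, against 0.38 in controls, and lay on both sides of them. The difference of -0.33 (95% interval -1.15 to 0.48) was 0.37, -0.55 and -0.82 within litters 1, 2 and 3. It was -0.01 without mutant 3 and -0.66 without mutant 1, so that single embryos set its size.

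The order of the mutants in Fzd10, with mutant 1 highest and mutant 3 lowest, was also that of the summed hem genes given above. Wnt8b, a Wnt of the hem and medial pallium, read 0.48, -0.12 and -6.15 across mutants 1 to 3, and 0.54, 0.86 and 1.35 across controls 1 to 3. Lmx1a, a homeobox gene that specifies the hem, read -0.51, -0.58 and -2.08 across mutants 1 to 3, and -1.30, -1.50 and -0.96 across controls 1 to 3. Rspo1, a secreted protein that raises Frizzled at the cell surface, read 2.82, 2.27 and -3.53 across mutants 1 to 3, and 0.44, 1.54 and 1.51 across controls 1 to 3. All 3 of these genes were lowest in mutant 3, as was Fzd10. Bmp6 and Rspo2 of the same list were not, at -6.55 and -6.88 in mutant 3 against -7.73 and -7.59 in control 1. Both were well above background in only 1 of the 3 controls. Among controls the orders differed, with Fzd10 highest in control 2 and the summed hem genes highest in control 3. Of 12 hem genes listed, 10 were measured, and the other 2, Wnt2b and Wnt3a, had no probe that passed the filter on dim probes. Whether the amount of hem tissue sets the Fzd10 values was not tested.

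Fzd4, the receptor of Norrin in retinal and brain vessels, read -1.27, -1.60 and -1.40 across mutants 1 to 3, and -1.48, -1.37 and -1.34 across controls 1 to 3. The groups overlapped, and the interval of the difference (-0.02) ran from -0.28 to 0.23. The 7 endothelial genes listed had a median difference of -0.12 (0.07 without mutant 3), with 0 at an unadjusted limma p under 0.05. Their summed signal was 8.30, 7.46 and 5.40 across mutants 1 to 3, and 6.76, 8.06 and 7.61 across controls 1 to 3, so that mutant 3 was the lowest, which Fzd4 did not follow.

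Fzd3 and Fzd6 form the remaining subfamily, which acts in planar cell polarity, and in mice both together serve neural tube closure. Fzd3, needed for growth of forebrain axon tracts, read -0.18, -0.57 and -0.30 across mutants 1 to 3, and -0.36, -0.43 and -0.27 across controls 1 to 3. The groups overlapped, and the difference of 0.00 had a 95% interval from -0.29 to 0.30. Differences as large as those of Fzd1, Fzd9 and Fzd8 lie outside this interval.

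Fzd6 read -3.05, -2.74 and -4.08 across mutants 1 to 3, and -2.90, -3.29 and -2.80 across controls 1 to 3. Mutant 3 was far below the other embryos, and mutant 2 above all controls. The difference of -0.29 (95% interval -1.19 to 0.60) was 0.10 without mutant 3. Of the listed genes, those nearest to Fzd6 over the 6 arrays were the embryonic globin Hba-x and the haem synthesis gene Alas2, both lowest in mutant 3. Hba-x read 6.52, 6.55 and 5.66 across mutants 1 to 3, and 6.47, 6.39 and 6.52 across controls 1 to 3. Whether blood cells carry the Fzd6 signal was not tested.

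Nearness was measured over the 125 measured genes of all lists as the root-mean-square difference between profiles over the 6 arrays, each centred on its own mean. Nearest to Fzd1 were Emx2 (0.13) and Lhx2 (0.13), homeobox genes of the pallium, where Fzd1 itself varied by 0.42 around its mean. Nearest to Fzd9 were Emx2 (0.11) and Lef1 (0.16), a transcription factor that beta-catenin binds, with 0.50 for Fzd9 itself. Emx2 read 0.62, 0.61 and 0.39 across mutants 1 to 3, and 1.38, 1.44 and 1.57 across controls 1 to 3. Lef1 read 2.10, 1.82 and 1.72 across mutants 1 to 3, and 2.79, 2.94 and 3.11 across controls 1 to 3. Fzd1, Fzd9, Emx2, Lhx2 and Lef1 were each lower in all 3 mutants. Fzd1 and Fzd9 varied mostly between the groups, so the genes picked as nearest to them had to share this direction.

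For Fzd8 the nearest genes were Shisa2 (0.09), which retains Frizzled proteins inside the cell, and the neuronal adhesion gene Ncam1 (0.09), with 0.29 for Fzd8 itself. For the upstream Fzd5 probe they were Celsr3 (0.11), a cadherin of axon tracts, and Olig3 (0.11), with 0.33 for the probe itself. The downstream Fzd7 probe was nearest to Hes1 (0.10), a Notch target, and Sfrp1 (0.11), a secreted Wnt-binding protein, with 0.19 for itself. Fzd3 and Fzd4, which varied by 0.13 and 0.11 around their means, were both nearest to Ccnd1 (0.07 for each), a cyclin, and then to Smo (0.11 and 0.10), the receptor protein of Hedgehog signalling. The upstream Fzd2 probe was nearest to Dvl2 and Tmem67 (0.06 for each), with 0.09 for itself. The downstream Fzd2 probe was nearest to Sox2 (0.07) and Lrp5 (0.09). Both of these distances exceed the variation of that probe around its own mean (0.05), so they show no shared profile. The upstream Fzd7 probe was nearest to Notum (0.12) and Vangl2 (0.15), with 0.26 for itself. The downstream Fzd5 probe was nearest to Lgr4 (0.29) and Aqp1 (0.30), with 0.55 for itself.

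**Figure D3:**
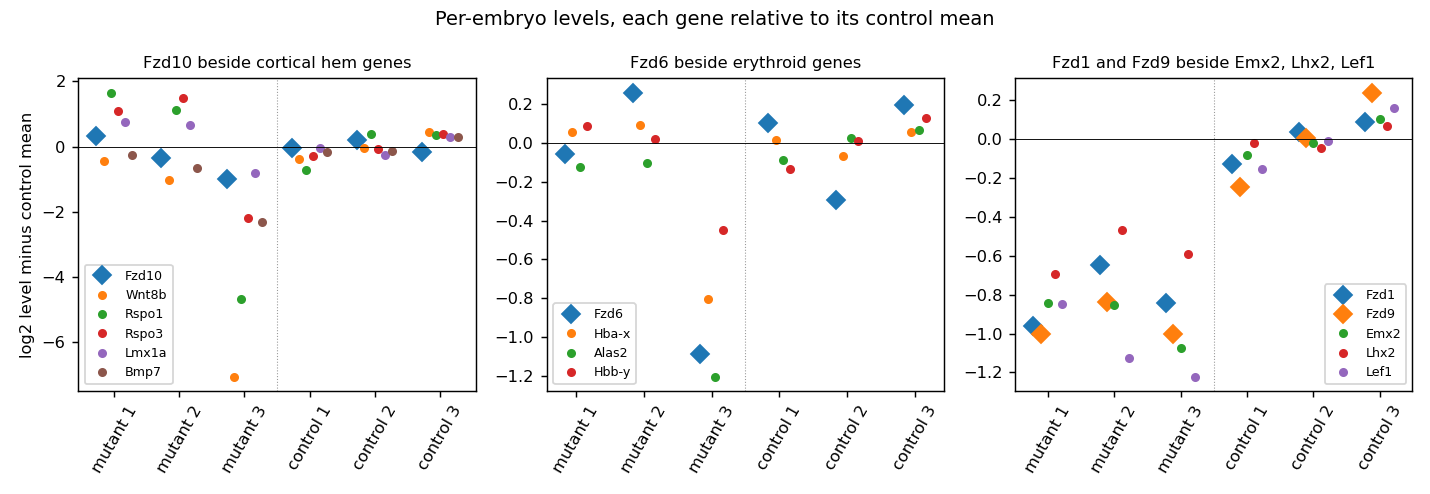
Level of each gene in each embryo, as the log2 level minus its mean over the 3 controls. Fzd10 is shown with some of the 10 measured hem genes (Wnt8b, Rspo1, Rspo3, Lmx1a and Bmp7), all of them lowest in mutant 3. The hem genes Bmp6 and Rspo2, which were not lowest there, are not shown. Fzd6 is shown with the erythroid genes Hba-x, Alas2 and Hbb-y, and Fzd1 and Fzd9 with Emx2, Lhx2 and Lef1. Frizzled genes are diamonds and the others circles, and each panel has its own scale. Fzd10 and Fzd6 were lowest in mutant 3, while Fzd1 and Fzd9 were lower in all 3 mutants.

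Around the receptors, 71 genes of Wnt reception in 7 lists were examined, of which 56 were measured. In limma 0 of them passed over all probes. At an unadjusted p under 0.05, 9 were lower and 6 higher, against 7.43% and 9.01% of all probes. The groups did not overlap for 12 lower and 8 higher genes, against 12% and 12.3% of all probes. These shares over all probes apply also to the counts of single lists below. Of 6 measured co-receptors and other receptors, Ror2, a Wnt5a receptor, had the largest difference. It read 0.85, 0.69 and 0.85 across mutants 1 to 3, and 2.13, 2.16 and 2.50 across controls 1 to 3, a difference of -1.46 (SE 0.12, limma, adjusted p = 0.0542), larger than that of any Frizzled probe. The beta-catenin co-receptors differed little, with 0.14 for Lrp5 and -0.03 for Lrp6, and the list median was -0.07.

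Of the 5 secreted Frizzled-related proteins, which hold a Frizzled-like Wnt-binding domain, 1 was lower at an unadjusted p under 0.05 and the median was 0.01. This was Frzb, at -2.38, -3.06 and -3.83 across mutants 1 to 3, and -2.01, -2.30 and -1.99 across controls 1 to 3 (difference -0.99, SE 0.36). Of 11 Dishevelled genes and regulators of Frizzled at the membrane, 1 was lower and 2 were higher at that level (median 0.07). Znrf3, a ubiquitin ligase that removes Frizzled from the surface, was lower (-0.36, SE 0.10). Shisa2 (0.58, SE 0.09) and Tspan12, a partner of Fzd4 in Norrin signalling (0.20, SE 0.08), were higher. None of the 3 Dishevelled genes reached an unadjusted p under 0.05, with -0.12 for Dvl1, 0.01 for Dvl2 and 0.07 for Dvl3.

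Among the ligands, 12 of 20 listed genes were measured, with 1 lower and 2 higher at an unadjusted p under 0.05 (median 0.23). Wnt7a, a ligand of cortical precursors, read 0.59, 0.92 and 0.94 across mutants 1 to 3, and 0.22, 0.20 and 0.01 across controls 1 to 3. Wnt10a was lower (-2.14, SE 0.31) and Wnt11 higher (0.44, SE 0.12). Both were dim, though well above background on all 6 arrays. Wnt10a read -5.34, -5.34 and -5.95 across mutants 1 to 3, and Wnt11 lay between -6.01 and -5.24 over all embryos. Of 8 measured R-spondins, Dickkopf and Kremen genes, 2 were higher at that level, Kremen1, a receptor of Dickkopf (0.45, SE 0.10), and Dkk3 (0.74, SE 0.22), and the median was 0.27. The 6 measured planar polarity partners had 0 at that level and a median of 0.06. With each embryo left out in turn, a choice made after seeing the data, the medians ranged from 0.13 to 0.25 for the ligands, from -0.02 (without mutant 2) to 0.17 for the polarity partners and from -0.13 (without mutant 3) to 0.10 for the secreted Frizzled-related proteins. That of the R-spondins, Dickkopf and Kremen genes was 0.04 without mutant 1 and 0.89 without mutant 3.

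The Wnt/beta-catenin target genes were all on the negative side, 8 of 8, with a median of -0.69 and 5 at an unadjusted p under 0.05. The list was chosen with earlier results of these data known, so its counts and median are no independent support. Those at an unadjusted p under 0.05 were Sp5 (-4.09, SE 0.86, well above background in 2 of the 3 mutants), Tnfrsf19 (-1.36, SE 0.12), Lef1 (-1.06, SE 0.13), Tcf7 (-0.79, SE 0.22) and Axin2 (-0.60, SE 0.18). Their groups did not overlap, while those of Nkd1, Notum and Ccnd1 did. The differences of these genes were near 0, at -0.06 (SE 0.19) for Nkd1, -0.005 (SE 0.15) for Notum and -0.04 (SE 0.09) for Ccnd1. Their negative sign is therefore not settled. The Frizzled probes, with 7 negative and 6 positive differences, were spread on both sides of 0.

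**Figure D4:**
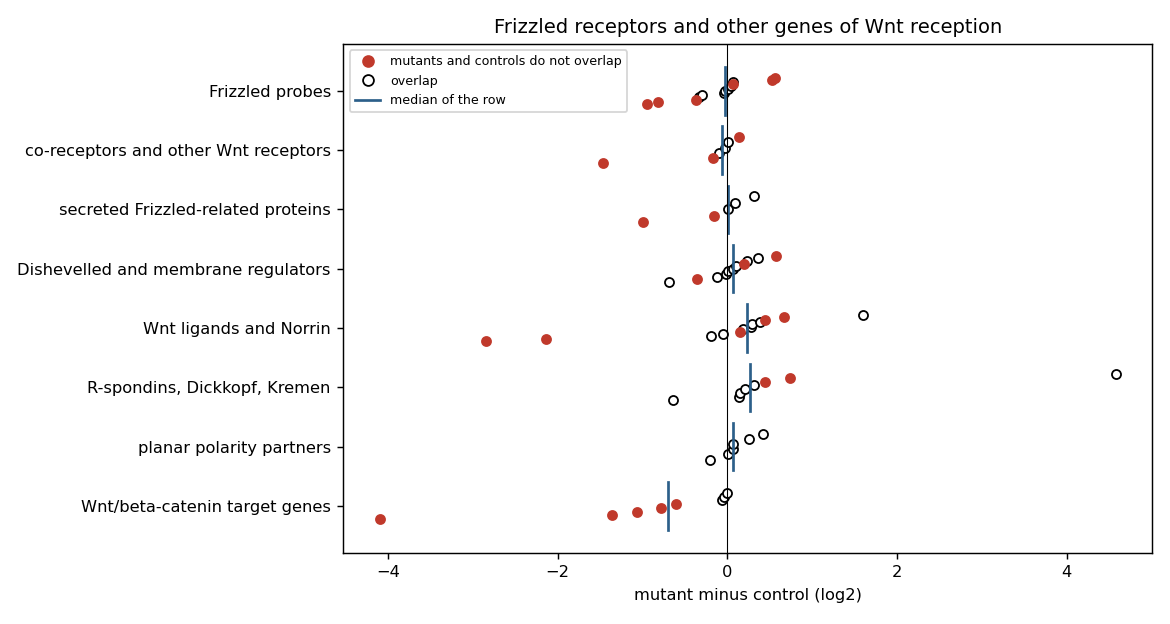
Mutant minus control difference (log2) of the 13 Frizzled probes and of the measured genes of each Wnt list, with filled red circles where mutants and controls do not overlap, open circles where they do, and a blue line at the median of the row. The medians run from -0.69 for the target genes to 0.27 for the R-spondins, Dickkopf and Kremen genes, and that of the Frizzled probes is -0.02.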

How the data were processed

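Total RNA of 6 embryos was hybridised to Agilent 1-colour (Cy3) arrays. The scanner files hold spot intensity, which the authors extracted with Feature Extraction 10.7.3.1 (grid build mm9), with background subtracted but arrays not scaled to each other, per the file headers. A deposited table gives the authors' log2 values, log2 ratios, p-values and fdr of 27269 probes, and the submitters' processing notes name limma. Its column numbers do not follow the titles (its first mutant column tracks mutant 2, with r = 0.904 across 27210 probes), so columns were used by group.

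Outlier spots were left out, spots of a probe averaged, and log2 of the 75th percentile of each array subtracted from log2 signals. The 26846 probes that cleared the background flag on 3 or more of 6 arrays were fitted with lmFit and eBayes of limma 3.58.1 (R 4.3.3) without a block, two-sided, adjusted by Benjamini-Hochberg and called at 0.05. The fit was tested on simulated data. Python 3.11.15, pandas 2.3.3 and scipy 1.17.1 were used. Listed genes were read at their brightest probe and named through RefSeq accessions (GRCm38.p6, used for names) or the authors' symbols.

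Members and lists were chosen with earlier results of these data known. All 13 Frizzled probes of the authors' deposited table are described. Genes of the 7 Wnt lists are named where their unadjusted p is under 0.05 and groups do not overlap. Others are named as target or hem genes. The 2 nearest listed genes of a Frizzled probe are named, and other genes were chosen after their values were seen. Single values of some listed genes are not reported here. Litters pair the samples, per the titles (deviations correlated at 0.303, 0.34 and 0.109 within litters 1, 2 and 3). Mutant 1 and control 1 shared slide 1 and the other 4 arrays slide 2, scanned apart, so values within litter 1 are those within slide 1. The embryos are separate animals, and 3 arrays per group limit the precision. Alternatives were normexp (on median signals, offset 50), quantile and median scaling, other filters, the brightest probe, litter or slide blocks, trend with robust variance, the authors' log2 values and omission of each embryo.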

Additional observations from a re-analysis of the deposited data

How the results depend on the processing

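Fzd1, Fzd9 and the downstream Fzd7 probe stayed lower, and Fzd8 and the upstream Fzd5 probe higher, in mutants under all 16 alternatives. Other filters, the brightest probe, blocks and trend with robust variance do not change the difference itself. Where groups do not overlap, omission of a single embryo cannot reverse its sign. Only normexp, quantile and median scaling and the authors' log2 values could have changed the direction. The Fzd1 difference ranged from -0.92 to -0.75 and that of Fzd9 from -1.07 to -0.83. With normexp background correction 2 Frizzled probes passed the threshold, Fzd1 (-0.86, limma, adjusted p = 0.0353) and Fzd9 (-0.98, adjusted p = 0.0304), and 2 passed with trend and robust variance, the same genes (0.0346 and 0.0415). Elsewhere 0 passed, and over all alternatives the adjusted p ranged to 0.43 for Fzd1 and 0.372 for Fzd9. At an unadjusted p under 0.05 the count was 5 throughout, except 6 without mutant 1, when Fzd10 joined. With litter as a replicate block 0 Frizzled probes passed (smallest adjusted p = 0.164) and 5 had an unadjusted p under 0.05.

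Over all probes the 7 calls became 154 with normexp (50.6% of them higher, against 28.6%), 144 with trend and robust variance, 19 with quantile scaling (21.1% higher), 27 with median centring (14.8% higher), 25 with probes well above background on all arrays, 25 with the authors' log2 values, and 0 without a filter, with the litter as a replicate block or with the slide as a block (9407, 5142 and 5113 at an unadjusted p under 0.05, in limma). Without single embryos it was 0 to 2. Median centring moved the median of all probes by -0.103, and with it Fzd2 was at -0.0322 upstream and -0.0332 downstream, Fzd3 at -0.0982 and the upstream Fzd7 probe at -0.0609. Quantile scaling put Fzd3 at -0.00604, and normexp put Fzd4 at 0.0114 and the downstream Fzd5 probe at 0.192. Omission of single embryos gave -0.000143 to 0.122 for the upstream Fzd2 probe, -0.0802 to 0.116 for Fzd3, -0.101 to 0.0634 for Fzd4, -0.51 to 0.34 for the downstream Fzd5 probe, -0.57 to 0.10 for Fzd6 and -0.10 to 0.27 for the upstream Fzd7 probe. These differences have no settled direction. Most were near 0 in the main fit, while that of Fzd6 was -0.29. The 95% intervals of Fzd6 (-1.19 to 0.60) and the downstream Fzd5 probe (-1.16 to 1.08) were wide. The cause of the changes in calls was not tested.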

Other observations

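Genes of other cell types and of neighbouring tissue were read in the same arrays. The median difference was 1.40 for 4 choroid plexus genes, 0.11 for 10 apical progenitor genes, 0.25 for 5 diencephalic genes, 1.42 for 5 subpallial genes and 0.05 for 8 genes of the meninges and head mesenchyme. It was 0.68 for 5 eye field genes and 0.17 for 10 hem genes. Microglia and macrophage genes (6 of 6) and erythroid genes (6 of 6) had negative differences, each with a median of -0.28. Single embryos set several of these medians, as their omission in turn, chosen after seeing the data, showed. Without control 3 the median was 0.40 for the subpallial genes, 0.77 for the choroid plexus genes (0.93 without mutant 1) and 0.10 for the eye field genes (0.30 without mutant 1 and 1.10 without mutant 2). For the hem genes it was -0.17 without mutant 1, -0.07 without mutant 2 and 0.85 without mutant 3. The genes of the meninges and head mesenchyme had -0.48 without mutant 1, 0.40 without mutant 3 and -0.11 without control 3. The erythroid genes had -0.50 without mutant 1 and 0.03 without mutant 3, the microglia and macrophage genes -0.46 without mutant 1 and -0.15 without mutant 2, and the apical progenitor genes 0.05 without mutant 3. In these lists 0 genes passed in limma over all probes.

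Among apical progenitor genes, Fabp7, a fatty acid carrier in radial glia, read 5.13, 5.45 and 5.34 across mutants 1 to 3, and 3.98, 4.04 and 3.72 across controls 1 to 3. Pax6 read 1.18, 1.40 and 1.28 across mutants 1 to 3, and 1.04, 0.87 and 0.95 across controls 1 to 3. Both were higher in all 3 mutants, as was Fzd8, while Emx2 and Lhx2 of the same list were lower in all 3.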
